A study of Mus musculus with 4 samples.

Results

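Primitive endoderm cells of the late diapause mouse blastocyst were compared here with the epiblast and trophoblast cells captured in the same library, labelled EDG9.5. The cells were chosen by measured counts of marker transcripts: a cell with at least 1000 unique molecule counts (UMIs) was called N, for endoderm, when the 8 genes Sparc, Col4a1, Lamb1, Srgn, Gata4, Sox17, Cubn and Amn gave at least 3 UMIs and at least 60% of the UMIs of 3 marker sets together. The epiblast set E (Tdgf1, Sox2, Nanog, Fgf4, Utf1, Pou3f1, Slc7a3) and the trophoblast set T (Gata2, Gata3, Tspan8, Dppa1, Rhox6, Rhox9, Cdx2, Hand1, Ascl2, Elf5) gave the other 2 classes by the same rule. Of 2522 cells over the UMI minimum, 905 were N cells, a share of 35.9% (exact Clopper-Pearson 95% interval 34.0 to 37.8%), with 592 E cells and 975 T cells beside them; 50 cells had no class. The whole series held 14529 cell barcodes.

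All cells came from wildtype embryos of the strain B6C3F1/J, pooled as whole embryos and dissociated with TrypLE before capture on the BD Rhapsody microwell system. Besides EDG9.5 the series had 1 library each for EDG7.5, for embryos labelled EDG9.5+30h E2 (Reactivated) and for E5.5; E5.5 came from about 50 embryos taken from implantation sites and each other library from about 200 to 250 blastocysts flushed from the uterus. Deposited totals were 9620232 UMIs in 1726 barcodes for EDG7.5, 10994918 in 2566 for EDG9.5, 9270833 in 677 for Reactivated and 87507141 in 9560 for E5.5. The series title names embryonic diapause and development around implantation, and E4.5, which its text also names, is not analysed here. Since each label is 1 library of pooled embryos, embryos and library cannot be told apart, and no p-value is given: cells of 1 library are not replicates.

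Primitive endoderm is the epithelium that forms on the face of the inner cell mass bordering the blastocyst cavity. It later gives rise to visceral endoderm, which takes up and digests maternal protein, and parietal endoderm, which lays down Reichert's membrane. FGF4 made by epiblast precursors, acting through FGF receptors, promotes the GATA6 programme that includes GATA4, SOX17, SOX7 and the PDGF receptor alpha, while NANOG and SOX2 mark the epiblast. In diapause the blastocyst halts before implantation with its lineages already separate.

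Few cells lay near the limits of the rule. N cells had a median of 38 N set UMIs (3 to 576), which made up a median of 98.2% of their marker UMIs, and 362 cells held UMIs of no other set. Just inside the 60% limit lay 6 N cells at 60 to 70%, and just outside it 1 cell at 50 to 60%. Just inside the limit of 3 UMIs lay 9 N cells with 3 or 4, and just outside it 4 cells with 1 or 2. Of the 905 N cells, 140 held at least 3 UMIs of a second set, some of the 6 above among them. For 124 cells this was the E set and for 16 the T set. With a limit of 80% in place of 60%, 889 N cells were kept. All 31 genes named by rule below stayed at least 2-fold apart in the same direction. They were picked as extremes in nearly the same cells, so this says little about the limit. The plot of marker UMIs per cell shows the values the rule used.

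**Figure D1:**
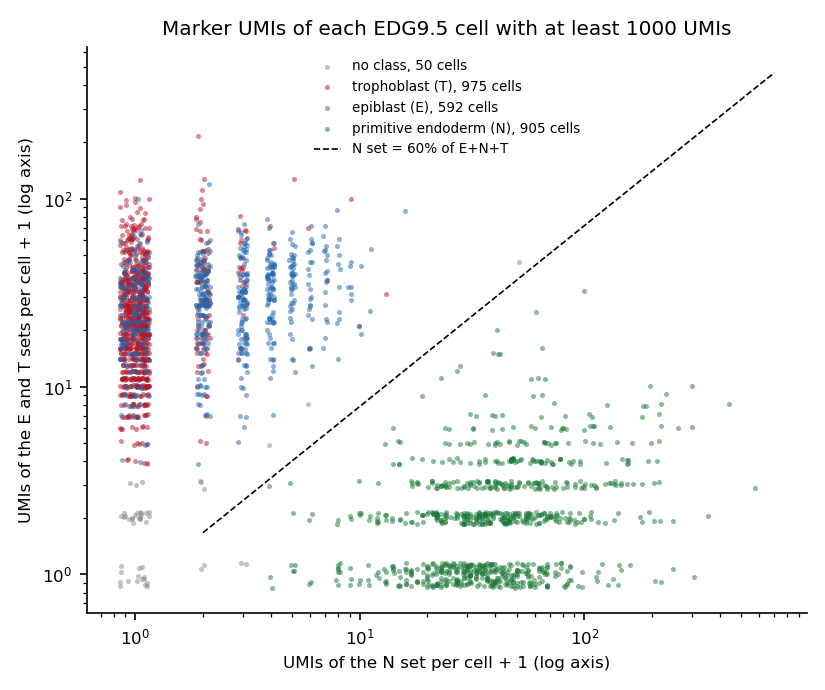
UMIs of the N set per cell (x axis) against UMIs of the E and T sets together (y axis), both plus 1 on log axes with small jitter, for the 2522 EDG9.5 cells with at least 1000 UMIs. The 905 N cells lie below the dashed line at 60%, most of them with few or no UMIs of the other sets.

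Markers that the rule did not read were also highest in N. Over 9 primitive endoderm genes outside the rule, among them Pdgfra, Gata6, Sox7, Lama1, Lamc1, Col4a2, Dab2 and Foxa2, the summed level, as CPM (UMIs of the gene scaled to a class total of 1000000), was 5708 in N, 400 in E and 2488 in T, and 8 of the 9 were highest in N; Dab2 was higher in T. Trophoblast markers outside the rule summed to 114 CPM in N against 8343 CPM in T. Epiblast markers outside the rule were not low in N: 8 genes summed to 2929.7 CPM in N, 6382 in E and 3009 in T, and 1 of them was highest in N. Visceral endoderm markers outside the rule summed to 1065 CPM in N and 2199 in E, where Apoe was high. Markers of cells a flushed uterus could add were near zero in N: immune genes summed to 7.42 CPM with 4 of 7 at 0, decidual stroma genes to 5.83 CPM with 2 of 8 at 0, endothelium genes to 28.6 CPM with 2 of 5 at 0, and all 6 erythroid genes were at 0 (0 of 3772684 UMIs). The uterine epithelium list summed to 123 CPM, of which Foxa2, also an endoderm gene, gave 115 CPM, with 4 of its 7 genes at 0. Median UMIs per cell were 3584 in N, 4039.5 in E and 3803 in T, so the classes were of like depth; the median share of mitochondrially encoded UMIs was 7.66%, 4.40% and 8.90%, and that of ribosomal protein UMIs 12.4%, 10.3% and 13.5%. Across libraries few barcodes recurred, 8 between EDG9.5 and EDG7.5, 3 with Reactivated and 27 with E5.5.

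Each gene was then summed over the cells of a class. Intervals of CPM are exact Poisson intervals and those of ratios exact conditional binomial intervals, all at 95% and covering counting error only. A gene counts as different at a log2 ratio of at least 1 either way after 10 CPM are added to both sides. The background was 10449 genes with at least 50 UMIs over the 3 classes, without the 25 genes of the rule. N stood at least 2-fold above both other classes for 411 genes (3.93%) and at least 2-fold below both for 124 (1.19%). Against E alone 756 genes were higher (7.24%) and 840 lower (8.04%), and against T alone 1507 were higher (14.4%) and 726 lower (6.95%). The median log2 ratio over all these genes was -0.01 for N over E and 0.31 for N over T, so changes against T are best read relative to 0.31; TMM scaling moved that median to 0.00 and the split against T to 972 higher and 1081 lower. Both contrasts use the same N cells. As the classes were made from these cells, the levels below describe them and are not tests.

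The 15 genes furthest above both other classes were, in order, Foxq1, Pdgfra, Col4a2, Hopx, S100g, Pth1r, P4ha2, Lhfpl2, Lama1, Rcn3, Serpinh1, F2r, Plod2, Sox7 and Myo7a. Foxq1, a forkhead transcription factor, reached 1152 CPM in N (1118 to 1186) against 7.09 CPM in E and 5.72 CPM in T. It gave at least 1 UMI in 60.2% of N cells once each cell was thinned to 1000 UMIs (88.0% unthinned), against 0.845% of E and 0.718% of T cells. Pdgfra, the receptor for PDGF-A and a standard marker of this lineage, stood at 511 CPM in N (489 to 535), 2.36 CPM in E and 0.440 CPM in T, and was seen in 39.9% of thinned N cells (77.5% unthinned) against 0.338% and 0.103%. Those shares in E and T cells are the level at which stray molecules would also be counted. A median N cell held UMIs of 10 of the 15 genes, a median E cell of 1 and a median T cell of 0; this follows in part from how the genes were picked.

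**Figure D2:**
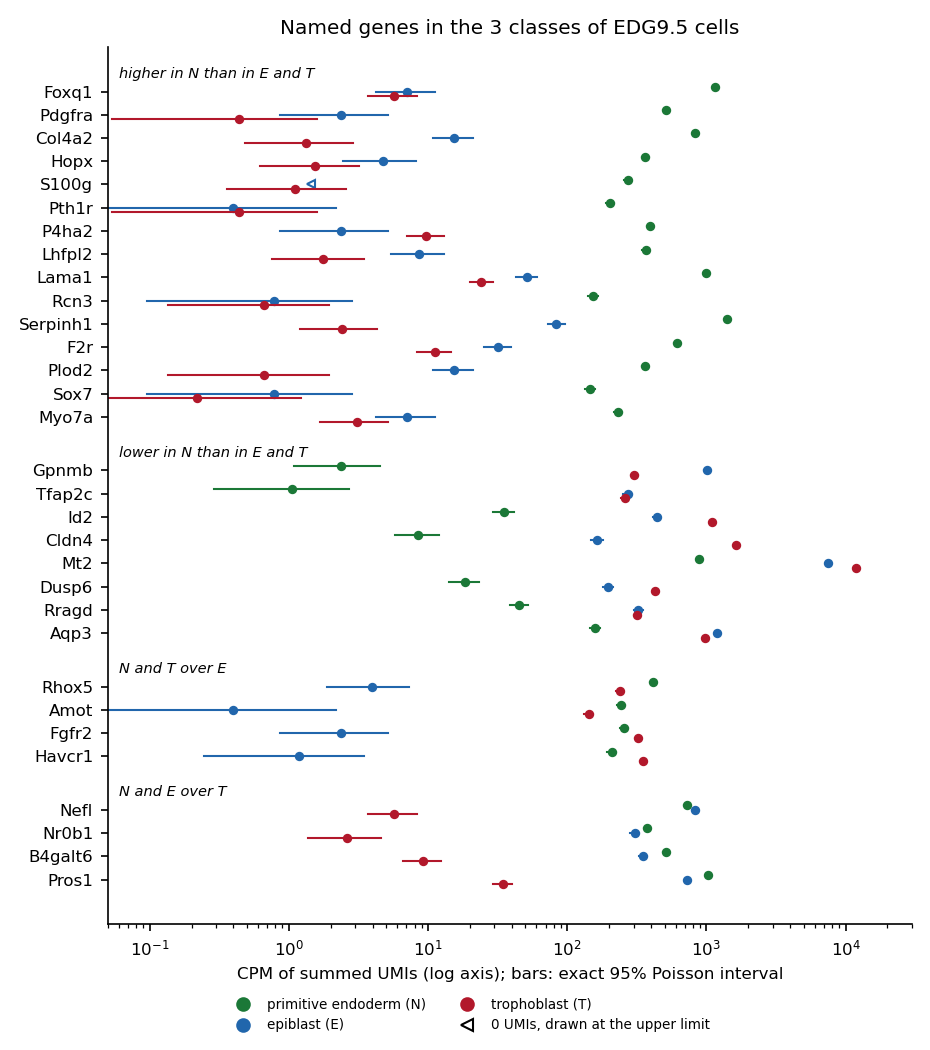
CPM of summed UMIs (log x axis) in N (green), E (blue) and T (red) cells of EDG9.5 for the 31 named genes, in 4 groups; bars are exact 95% Poisson intervals and open triangles mark 0 UMIs. Foxq1 at 1152 CPM in N against 7.09 and 5.72 CPM leads the first group, and Gpnmb at 2.39 CPM in N against 1005 and 304 CPM leads the second.

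Basement membrane and the enzymes that fold its collagen held many of the genes highest in N. Type IV collagen forms the network of a basement membrane, and laminin, nidogen and perlecan complete it. Col4a2 reached 824 CPM in N, 15.4 CPM in E and 1.32 CPM in T. Its partner Col4a1, a gene of the rule that starts head to head with Col4a2 on chromosome 8 (RefSeq, GRCm38.p6), was at 2211, 16.6 and 4.84 CPM. Of the laminin chains, alpha 1 (Lama1) was at 989 CPM in N, 51.2 in E and 24.2 in T, a ratio of 19.3 over E (16.2 to 23.2) and 40.9 over T (33.8 to 49.9). Laminin gamma 1 (Lamc1) was at 1488, 277 and 34.7 CPM. Perlecan (Hspg2) followed with 197, 31.5 and 6.16 CPM. These 4 (Col4a2, Lama1, Lamc1, Hspg2) were the members above both other classes among 13 basement membrane genes counted (all genes, 3.93%).

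Other members of that list set N apart from epiblast in the opposite direction. Fibronectin (Fn1) was at 3.98 CPM in N against 645 CPM in E, 162 times higher in E (98.0 to 290), with T at 6.38 CPM. Col18a1 (0.530 and 51.2 CPM in N and E), agrin (Agrn, 33.9 and 188 CPM) and laminin alpha 5 (Lama5, 88.3 and 203 CPM) were also at least 2-fold lower in N than in E. Nid1, which links laminin to collagen IV, had 380 CPM in both N and E and 133 CPM in T, and Nid2 had 42.7, 45.7 and 0.879 CPM. Lamb2 (49.6, 34.3, 39.1 CPM in N, E and T) showed no 2-fold difference, fibulin 1 (Fbln1) was at 77.9, 34.7 and 136 CPM, and dystroglycan (Dag1) at 63.6, 86.7 and 180 CPM. The list as a whole had a median log2 ratio of -0.00 over E and 0.28 over T, close to all genes.

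Collagen IV has to be hydroxylated and chaperoned in the endoplasmic reticulum. Among 24 genes of collagen folding and secretion counted, 10 were at least 2-fold above both classes (all genes, 3.93%), 11 were above E, 20 above T, and none was 2-fold below either. TMM scaling gave 11, 12 and 18. Medians were 0.91 over E and 2.04 over T. The collagen chaperone Hsp47 (Serpinh1) was at 1399.5 CPM in N, 83.6 CPM in E and 2.42 CPM in T, and was found in 68.0% of thinned N cells (92.4% unthinned) against 6.76% and 0.308%. Prolyl 4-hydroxylase alpha 2 (P4ha2) was at 391, 2.36 and 9.67 CPM, its sister P4ha1 at 184, 24.8 and 9.45 CPM, and their shared beta subunit P4hb at 893, 230 and 183 CPM. All 3 lysyl hydroxylases were higher in N than in both: Plod2 at 364, 15.4 and 0.660 CPM, Plod1 at 161, 14.6 and 25.3 CPM, and Plod3 at 98.3, 23.6 and 15.8 CPM. The calcium-binding ER protein Rcn3 had 154 CPM in N and 0.788 and 0.660 CPM in E and T.

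Of the general ER chaperones, 3 are given here, chosen after their values were seen. Hspa5 (BiP) was at 1953 CPM in N and 2095 CPM in E, Hsp90b1 at 1091 and 1762 CPM, and Calr at 1478 and 2084 CPM. In T they were at 418, 177 and 465 CPM. N and E thus stood together above T for these, by 4.67-fold (4.44 to 4.91) for Hspa5 in N. Creb3l2, a transcription factor known to drive secretory pathway genes, was at 196 CPM in N, 22.9 in E and 3.30 in T.

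The upstream sequences of the collagen chaperone and of P4ha2 are printed because both genes stood far above E and T and their windows lie outside every RefSeq gene. They are the 250 bases before the start on the coding strand, Serpinh1 at chr7:99353240-99353489 (minus strand) and P4ha2 at chr11:54100674-54100923 (plus strand), GRCm38.p6. Capitals mark GGGCGG (GC box) and TGCNCNC, searched on both strands. TGCNCNC is a looser pattern than the metal response element core TGCRCNC, where R is A or G.
Serpinh1: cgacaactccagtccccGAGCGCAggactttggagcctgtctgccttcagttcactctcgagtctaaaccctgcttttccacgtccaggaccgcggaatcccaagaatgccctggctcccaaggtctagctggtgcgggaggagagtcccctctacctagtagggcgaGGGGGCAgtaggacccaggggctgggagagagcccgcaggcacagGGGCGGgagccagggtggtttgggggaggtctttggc
P4ha2: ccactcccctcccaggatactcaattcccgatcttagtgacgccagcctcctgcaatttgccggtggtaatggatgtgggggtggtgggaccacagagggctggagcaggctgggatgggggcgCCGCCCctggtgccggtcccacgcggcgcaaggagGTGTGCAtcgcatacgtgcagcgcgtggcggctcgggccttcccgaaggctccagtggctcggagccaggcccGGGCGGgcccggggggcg
GGGCGG occurs 37 bases before the start in Serpinh1, and 18 and 126 bases before it in P4ha2. It was common: 61.0% of the 2794 counted genes with such a window held it, and 24.3% of all 13283 windows. The GATA letters AGATAA or TGATAA, searched likewise, were in neither window; they were in 16 of 126 windows of genes above both classes (12.7%), in 9.23% of windows of counted genes and in 21.1% of all windows.

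Transcription factors of the endoderm programme came next. Of 18 counted, 8 were at least 2-fold above both classes (all genes, 3.93%). Medians were 0.98 over E and 1.58 over T (all genes, -0.01 and 0.31). Gata6, which acts upstream of the others, was at 850 CPM in N (821 to 880), 36.3 CPM in E and 243 CPM in T, so its trophoblast level was not near zero. Gata4 and Sox17, both of the rule, were at 832 and 635 CPM in N, 6.31 and 5.91 CPM in E and 1.98 and 2.20 CPM in T. Sox7 had 145 CPM in N, with 2 UMIs in all E cells and 1 in all T cells. The pioneer factor Foxa2 was at 115 CPM in N, 0.788 in E and 0.440 in T. Snai1, a repressor of E-cadherin, was at 144, 28.4 and 2.86 CPM, and Cited1 at 23.1, 3.15 and 1.98 CPM.

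Not all factors with an endoderm role were N genes here. Eomes (19.9, 103 and 443 CPM in N, E and T) and Bhlhe40 (9.54, 67.8 and 497 CPM) were at least 2-fold lower in N than in both. Otx2, a factor of the epiblast and of anterior visceral endoderm, was at 0.795 CPM in N against 141 CPM in E. Hhex stood at 59.9, 35.5 and 2.64 CPM and Tcf7l2 at 114, 73.3 and 28.4 CPM. Sall4 (459, 469, 380 CPM), Klf5 (650, 511, 713 CPM) and Nr2f2 (11.1, 10.2, 7.91 CPM) were within 2-fold in all 3 classes, and Klf6 was at 438, 330 and 1251 CPM.

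Ligands and receptors were split between the lineages. The receptor Pdgfra was an N gene, whereas its ligand gene Pdgfa was low in N: 73.4 CPM against 426 CPM in E and 442 CPM in T, 5.80 times higher in E (5.08 to 6.64) and 6.02 times in T (5.31 to 6.85). For FGF, Fgfr2 was at 256 CPM in N and 322 CPM in T but 2.36 CPM in E, while Fgfr1 was at 14.8 CPM in N and 118 and 124 CPM in E and T. The ligand Fgf4, an E set gene, was at 668 CPM in E and 1.59 CPM in N. Fgfr3 (19.6, 0.394, 0.220 CPM) was low but highest in N, and Fgfr4 (15.4, 5.52, 74.1 CPM) highest in T. N cells carried FGF ligand transcripts of their own: Fgf10 at 491 CPM, against 156 in E and 1.10 in T, and Fgf3 at 36.6, 2.36 and 0 CPM. Fgfbp1, a carrier of FGFs, was at 0 UMIs in N and 11.8 and 47.7 CPM in E and T. The adaptors Frs2 (61.8, 38.2, 36.3 CPM), Frs3 (20.1, 12.6, 44.6 CPM) and Grb2 (92.8, 132, 85.7 CPM) were within 2-fold on the scale with 10 CPM added, and Pdgfb was at 1.86, 18.9 and 0.440 CPM.

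Genes that ERK signalling is known to induce did not move together in N. Of 15 counted, 4 were at least 2-fold above E and 4 below it (all genes, 7.24% and 8.04%), with a median of -0.24. Against T, 9 were above and 1 below (all genes, 14.4% and 6.95%), with a median of 1.64. With TMM, 8 were above T and 3 below. Dusp6, an ERK phosphatase, was the one lower in both comparisons, at 18.3 CPM in N, 197 in E and 431 in T. Etv5 was at 13.8, 153 and 1.10 CPM. In contrast Spry4 (243, 99.7, 0.660 CPM), Phlda1 (255, 39.4, 54.1 CPM) and Etv4 (23.1 CPM, 4.34 CPM and 0 UMIs) were 2-fold higher in N than in both.

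Some receptors and antagonists outside FGF signalling were found mostly in N. Pth1r, the receptor for parathyroid hormone related protein and a parietal endoderm gene, was at 204 CPM in N (189 to 218), with 1 UMI in all E cells and 2 in all T cells. F2r, the thrombin receptor, was at 614, 31.9 and 11.2 CPM, and tissue factor pathway inhibitor (Tfpi) at 592, 108 and 11.2 CPM. Dkk1, a WNT antagonist of anterior visceral endoderm, was at 160 and 7.09 CPM in N and E with 1 UMI in all T cells. The anterior visceral endoderm list as a whole was not an N list. Of 7 genes counted, 1 was at least 2-fold above both classes (all genes, 3.93%). Against E, 2 were above and 2 below (all genes, 7.24% and 8.04%), with a median of -0.38. Against T, 4 were above and 0 below (all genes, 14.4% and 6.95%), with a median of 1.12. Serping1, the C1 esterase inhibitor, was at 192 and 18.1 CPM in N and E with 2 UMIs in T. Coagulation and protease control genes did not all go this way. Of 13 counted, 3 were at least 2-fold above both classes and 2 below both (all genes, 3.93% and 1.19%). Medians were 0.88 over E and 0.40 over T, the latter near the 0.31 of all genes. With TMM, 3 were above both and 1 below both, with a median over T of -0.01.

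Genes of the 2 later endoderm fates were both present. Among 18 genes of visceral endoderm uptake, 5 were at least 2-fold above both classes: the receptor megalin (Lrp2) at 293, 4.73 and 56.9 CPM, its chaperone Lrpap1 at 653, 123 and 83.5 CPM, the protease cathepsin L (Ctsl) at 2404, 396 and 490 CPM, cathepsin Z (Ctsz) at 107, 11.8 and 24.6 CPM, and the zinc transporter Slc39a8 at 59.1 and 0.394 CPM with 0 UMIs in T. Of all genes, 3.93% were above both. Medians were 0.99 over E and 1.03 over T. The endocytic adaptor Dab2 was at 700 CPM in N and 15.0 in E but 2183 CPM in T. Transferrin receptor (Tfrc) was at 9.01 CPM in N against 97.4 in E and 11.9 in T. The 11 other members ranged from 20.4 to 417 CPM in N.

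Of 16 parietal endoderm genes counted, 7 were at least 2-fold above both: Pth1r, Tfpi, the retinol transporter Stra6 (55.4 CPM, 0 UMIs in E, 0.660 CPM in T), tissue factor F3 (139, 20.1, 38.5 CPM), podocalyxin (Podxl, 118 CPM, 10.6 CPM, 0 UMIs), Timp2 (17.8, 2.36, 0.220 CPM) and Timp3 (28.6, 0.394, 1.10 CPM). The share of all genes above both was 3.93%. Medians were 1.35 over E and 1.08 over T. Plat, the parietal marker plasminogen activator, was at 69.7 CPM in N, 6.70 in E and 39.8 in T. Vim (9.28, 48.9, 0.660 CPM) and Fst (10.1, 73.3 CPM, 0 UMIs) were lower in N than in E, and S100a6 was at 3.71, 7.09 and 239 CPM. Igf2r (319, 294, 137 CPM), Itgb1 (275, 183, 189 CPM) and Itga6 (102, 129, 122 CPM) were within 2-fold of E, and Krt19 (11.7, 0.394, 21.1 CPM) and Cryab (19.9, 0.394, 24.8 CPM) were above E alone.

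Of 22 genes for proteins that mature visceral endoderm secretes, 6 reached 50 UMIs over the 3 classes. Of all 25437 gene names in the series, 10449 were counted by that minimum, which is not specific to N. Of the 6, 2 were at least 2-fold above E and 1 below (all genes, 7.24% and 8.04%). Against T, 3 were above and 1 below (all genes, 14.4% and 6.95%). Above both was 1 (all genes, 3.93%), and medians were 0.46 over E and 1.02 over T. Apoe was at 692 CPM in N against 2193 in E and 507 in T. Spink3, a trypsin inhibitor, had 66.0 CPM in N and 0 UMIs in E and T, which puts it at least 55.8-fold above E and at least 100-fold above T with 3 UMIs per class in place of 0. S100g, a calcium-binding protein of absorptive epithelia, had 272 CPM in N and 0 UMIs in E, at least 230-fold higher, and 1.10 CPM in T. It gave a UMI in 12.2% of thinned N cells (25.5% unthinned) and up to 167 UMIs in 1 cell, so its level came from part of the cells.

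Below both other classes, the named genes were Gpnmb, Tfap2c, Id2, Cldn4, Mt2, Dusp6, Rragd and Aqp3. Gpnmb, a glycoprotein under MiT/TFE control, was at 2.39 CPM in N (9 UMIs), 1005 CPM in E and 304 CPM in T, 421 times higher in E (222 to 923). It was found in 0.221% of thinned N cells (0.773% unthinned), 39.2% of E cells and 21.7% of T cells. Rragd, which encodes the RagD GTPase of lysosomal nutrient sensing, was at 45.1, 325 and 319 CPM. Tfap2c, a transcription factor shared by trophoblast and naive epiblast, was at 1.06, 273 and 260 CPM, with 4 UMIs in all N cells. The BMP target Id2 was at 35.0, 438 and 1091 CPM, and its relatives Id3 and Id4 were at 20.7, 506, 33.6 and at 5.04, 101, 9.45 CPM. The tight junction gene Cldn4 was at 8.48, 165 and 1632 CPM and the water channel Aqp3 at 159, 1191 and 975 CPM.

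Metallothionein 2 (Mt2), which binds zinc and copper, was abundant in all classes but lowest in N: 891 CPM (861 to 922) against 7422 CPM in E (7316 to 7529) and 11952.5 CPM in T (11852 to 12053). It gave a UMI in 31.0% of thinned N cells (48.5% unthinned), 92.4% of E and 96.7% of T cells, and the highest N cell had 141 UMIs. The neighbouring Mt1 gene on chromosome 8, looked at after Mt2 was seen, was at 845, 4412 and 10453 CPM, 5.22 times higher in E (5.02 to 5.43) and 12.4 times in T (11.9 to 12.8). The 250 bases before the Mt2 start, at chr8:94172368-94172617 (plus strand, RefSeq, GRCm38.p6), are shown because metallothionein genes are the textbook case of metal response elements; capitals mark TGCNCNC on either strand.
Mt2: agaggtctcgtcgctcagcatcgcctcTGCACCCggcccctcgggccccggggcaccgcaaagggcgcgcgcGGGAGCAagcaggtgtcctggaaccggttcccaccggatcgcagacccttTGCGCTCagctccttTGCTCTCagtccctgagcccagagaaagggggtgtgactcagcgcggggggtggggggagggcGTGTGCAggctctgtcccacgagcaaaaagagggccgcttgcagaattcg
These letters occur 5 times, at 50, 113, 128, 178 and 223 bases before the start. The pattern is looser than the core TGCRCNC, so not every match holds that core, and the core itself was not counted. At least 1 match was in 38.6% of all 13283 windows, and at least 5 matches in 25 of them (0.188%). Among the 2794 windows of counted genes, 51.0% held at least 1 match. A match is a description of sequence, not of a site in use.

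Some genes joined N with trophoblast and others with epiblast. With T, and near zero in E, stood Fgfr2 (above), the X-linked homeobox gene Rhox5 (412 CPM in N, 3.94 in E, 239 in T), the X-linked angiomotin gene Amot (243, 0.394, 143 CPM) and Havcr1, which encodes the receptor TIM-1 (208, 1.18, 353 CPM). With E, and near zero in T, stood the neurofilament gene Nefl (722, 825, 5.72 CPM), the nuclear receptor Nr0b1 (376, 305, 2.64 CPM), the glycolipid enzyme B4galt6 (509, 351, 9.23 CPM) and the anticoagulant protein S gene Pros1 (1020, 731, 34.5 CPM). These 8 were chosen for this pattern.

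By list medians, naive pluripotency genes in N lay below E and, by less than 2-fold, above T. Of 22 counted, 12 were at least 2-fold lower in N than in E and 2 higher (all genes, 8.04% and 7.24%). Against T, 10 were higher and 3 lower (all genes, 14.4% and 6.95%). Of the 22, 3 were 2-fold below both classes and 1 above both. Medians were -1.17 over E and 0.94 over T (all genes, -0.01 and 0.31), and -1.08 and 0.65 with TMM. Esrrb was at 240, 603 and 6.81 CPM and Klf4 at 919, 1908 and 472 CPM. Tbx3 (958, 1051, 103 CPM) and Tcl1 (135, 150, 0.660 CPM) were near their epiblast level. Prdm14 had 0 UMIs in N and 103 CPM in E. Dppa3 was highest in N, at 59.9, 11.8 and 0.220 CPM. Of 23 trophectoderm genes outside the rule, 17 were at least 2-fold lower in N than in T (all genes, 6.95%), with a median of -3.14. Krt18 was at 30.7 CPM in N and 3486 CPM in T. Wwtr1 (413, 116, 33.4 CPM) and Gjb5 (183, 69.0, 64.9 CPM) were 2-fold higher in N than in both, Gjb5 only without TMM.

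Lists of cell division and metabolism were also read. Of 27 G2 and M phase genes, none was 2-fold above E and 4 were below it (all genes, 7.24% and 8.04%), with a median of -0.47. Against T, 14 were above and none below (all genes, 14.4% and 6.95%). The list median over T was 1.17 (TMM 10 above, median 0.80). Top2a was at 159, 187 and 21.1 CPM. Cholesterol synthesis leaned to N in both: of 21 genes, 4 were 2-fold above E and 11 above T (all genes, 7.24% and 14.4%). None was below either, and medians were 0.65 and 1.18 (TMM 7 above T, 0.78). Cyp51 (168, 52.0, 36.7 CPM), Hsd17b7 (63.1, 18.9, 8.79 CPM) and Sc4mol (150, 69.4, 59.1 CPM) were the members above both, of which Sc4mol missed 2-fold with TMM. Nuclear oxidative phosphorylation genes were close to E (0 of 29 at 2-fold, median -0.09) and below T by a median of -0.56. Of the 29, 4 were 2-fold below T (all genes, 6.95%). With TMM, 13 were, with a median of -0.98. Among single genes, Asns for asparagine synthesis was at 887, 1050 and 32.5 CPM and the carnitine transferase Cpt1a at 516, 295 and 27.9 CPM. Ldha was at 95.4, 10.6 and 28.1 CPM and Ldhb at 7.69, 130 and 0.879 CPM, the 2 lactate dehydrogenase genes being split between N and E.

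**Figure D3:**
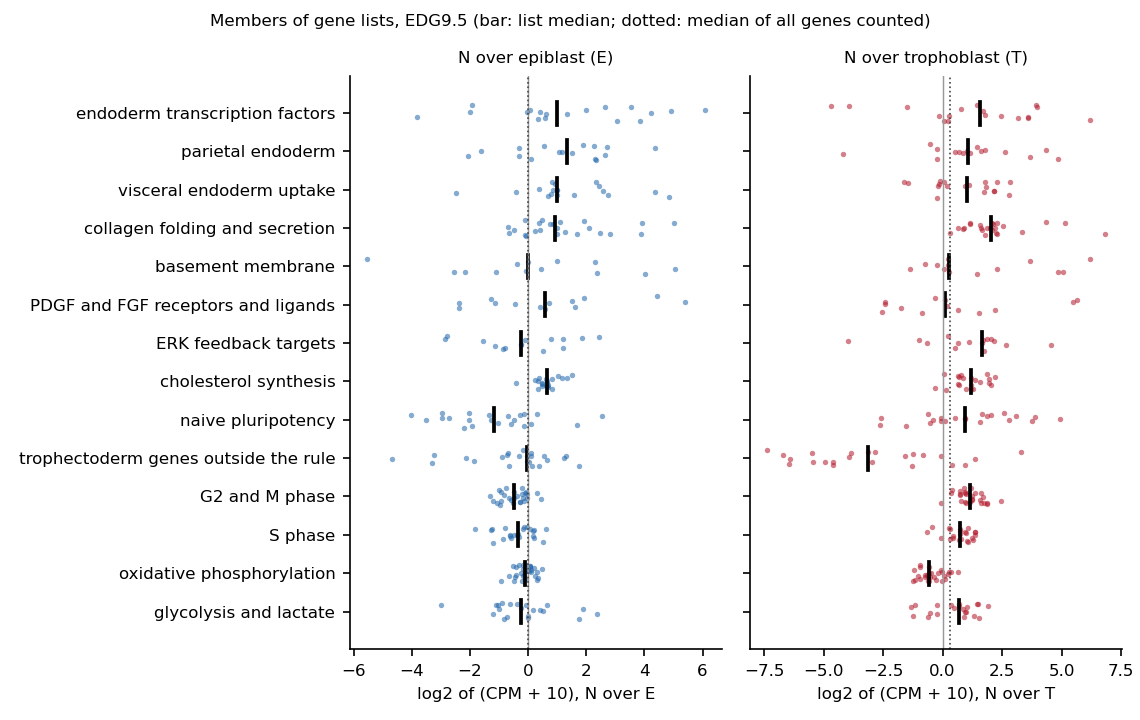
Each point is a counted member of a gene list, placed at its log2 ratio of CPM plus 10 for N over E (left) and N over T (right); the bar is the list median and the dotted line the median of all 10449 genes (-0.01 and 0.31). Collagen folding genes have no member 2-fold below either class, and trophectoderm genes spread far below T.

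N cells were not uniform. Leiden clustering of the 905 cells alone gave 4 clusters of 470, 292, 109 and 34 cells, numbered 0 to 3 and left unnamed. The genes that lead a cluster also define it, so the values describe the split. Cluster 2, 12.0% of N cells, led with Spink3 (325 CPM against 0.664 CPM in the other N cells) and Mki67 (298 against 6.30 CPM), followed by Birc5 and Ccna2. Cubn, a gene of the rule, ranked 8 (689 against 34.5 CPM). Proliferation genes and an uptake receptor were thus both among the leading genes of cluster 2. Its summed G2 and M phase level was 5696 CPM, against 669, 701 and 898 CPM in clusters 0, 1 and 3. This cluster also had the highest S100g (892 CPM; 133, 67.7 and 69.1 CPM in clusters 0, 1 and 3), high Lrp2 (765; 186, 145, 96.7 CPM), high Dab2 (1430.5; 553, 407, 552 CPM) and high Lefty1 (360; 18.3, 14.6, 41.4 CPM), and lower Hopx (163; 395, 462, 525 CPM) and Nefl (282; 849, 750, 1174 CPM). Their median depth was 6502 UMIs, against 4350, 2417.5 and 1974 in clusters 0, 1 and 3; its part in the split was not tested.

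Cluster 3, with 34 cells and the lowest median depth of the 4 (1974 UMIs and 1184.5 genes, whose part was not tested), had 0.476% mitochondrially encoded UMIs, against 7.67, 8.48 and 8.43% in clusters 0 to 2, and 21.6% ribosomal protein UMIs. Its secreted matrix transcripts were low, Col4a1 at 373 CPM (2159, 2269.6 and 2479 CPM in clusters 0, 1 and 2) and Sparc at 1008 CPM. Among transcription factors, Gata4 was at 1450.2 CPM (817, 938, 710 CPM) and Gata6 at 1339.7 CPM (898, 909, 606 CPM), while Sox17 was at 663 CPM (681, 689, 445 CPM) and Foxa2 at 82.9 CPM (94.6, 102, 188 CPM). Foxq1 was within 2-fold in all 4 clusters (1076, 1022, 1479 and 1353.5 CPM).

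**Figure D4:**
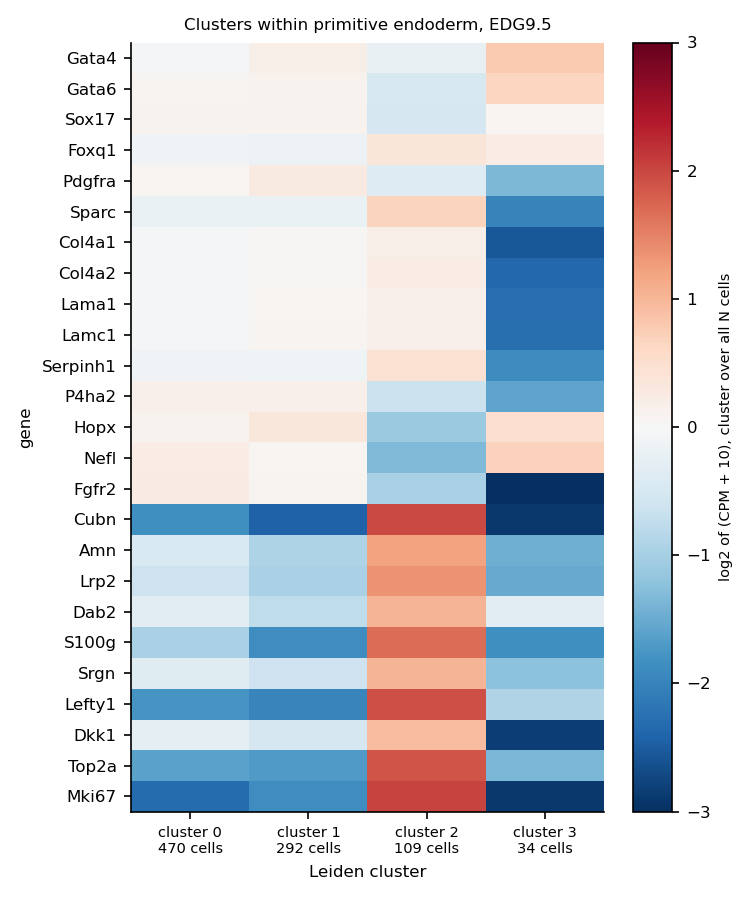
Log2 ratio of CPM plus 10 in each Leiden cluster over all N cells (colour) for 25 genes (rows) in clusters 0 to 3 (columns, with cell numbers). Uptake and mitotic genes are high in cluster 2, and matrix genes are low in cluster 3, where Gata4 and Gata6 are not.

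The same rule gave 588 N cells in EDG7.5, 305 in Reactivated and 3155 in E5.5, so the genes picked in EDG9.5 could be read in libraries that did not choose them. These are single libraries, so stage and library cannot be told apart, and in E5.5 the rule left 1494 of 9560 cells without a class. In EDG7.5 all 15 genes highest in N and all 8 lowest in N were again at least 2-fold apart in the same direction, where 3.93% and 1.32% of all genes were. In Reactivated 14 of 15 and 5 of 8 were (all genes 7.11% and 1.43%), and in E5.5 13 of 15 and 1 of 8 (5.29% and 0.670%).

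The collagen gene Col4a2 was at 933, 824, 793 and 655 CPM in N cells of the 2 diapause libraries (EDG7.5, then EDG9.5), of Reactivated and of E5.5, and at most 19.5 CPM in E or T. Serpinh1 was at 1442, 1399.5, 2639 and 2452 CPM in N, and Pth1r at 202, 204, 188 and 285 CPM. Foxq1 was at 1356, 1152, 722 and 212 CPM in N, still the top class each time. F2r was at 658, 614, 178 and 46.5 CPM, and Lhfpl2, a tetraspan membrane protein gene, at 259.5, 366, 37.5 and 18.7 CPM. Hopx, a homeodomain-only cofactor, was at 337 and 364 CPM in N in the diapause libraries; in Reactivated N had 246 CPM and E 148 CPM, and in E5.5 N had 24.5 CPM, below E (67.2 CPM) and T (109 CPM).

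Among the genes low in N, Gpnmb was at 709 and 1005 CPM in E cells of EDG7.5 and EDG9.5, 4.68 CPM in Reactivated and 0.863 CPM in E5.5, and in T cells at 263, 304, 3.24 and 0.0486 CPM, so that in E5.5 all 3 classes were near zero. Mt2 in N cells was at 772, 891, 1234 and 2528 CPM, and in E5.5 all 3 classes were within 2-fold (2528, 2028 and 1937 CPM in N, E and T). Cldn4 alone kept a 2-fold lower level in N than in both at all 4 labels. Of the genes that N shared with T, 4 of 4 were at least 2-fold above E in EDG7.5 and Reactivated and 2 of 4 in E5.5; of those shared with E, 4 of 4 were above T in EDG7.5 and Reactivated and 2 of 4 in E5.5. The medians went from 4.52 in EDG9.5 to 1.63 in E5.5, and from 4.84 to 0.95. Shares of all genes above E alone or above T alone are not given for the other libraries. The counts of 4 therefore stand without a background. For uptake genes, the median over E was 0.87, 0.99, 2.92 and 3.15 in the order above. Of the secreted proteins, 3, 6, 11 and 20 were counted, and of all genes 10258, 10449, 9493 and 14029. The minimum of 50 UMIs over the 3 classes is not specific to N. It is a lower level in E5.5, which held 87507141 UMIs against at most 10994918 in any other library. These counts therefore do not show how secreted protein genes in N differ by stage.

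**Figure D5:**
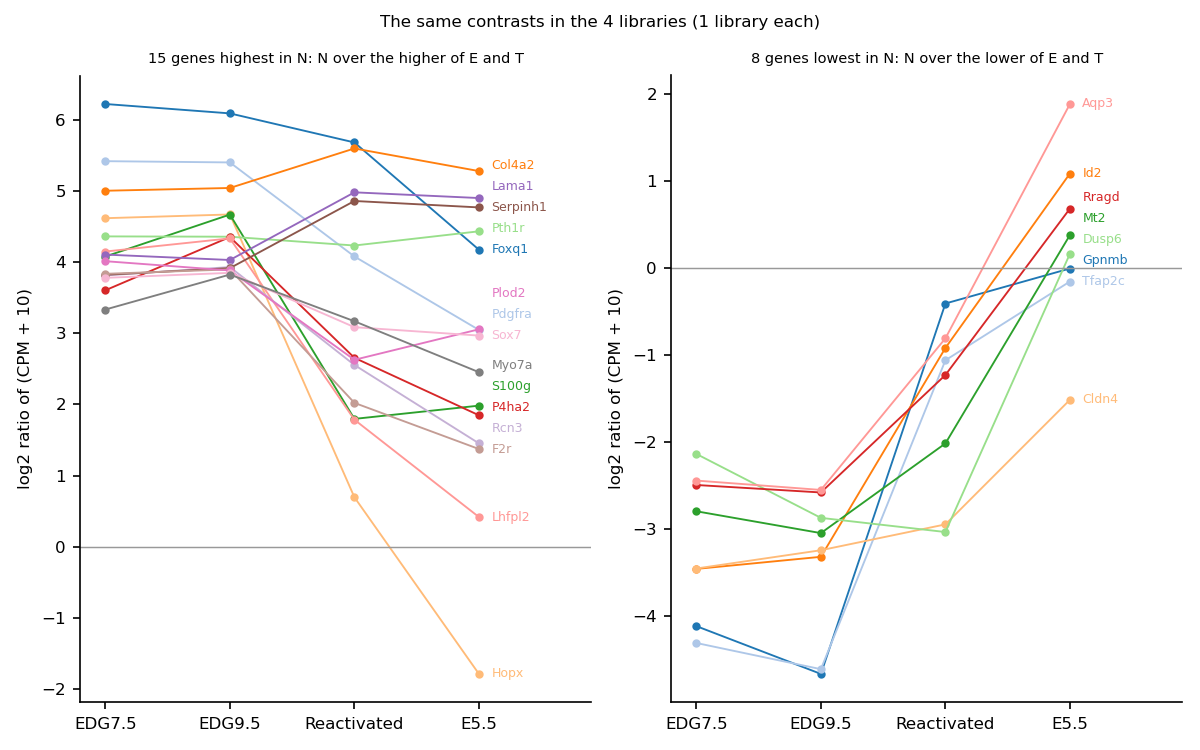
Log2 ratio of CPM plus 10 (y axis) in the 4 libraries (x axis), for the 15 genes highest in N, as N over the higher of E and T (left), and the 8 lowest in N, as N over the lower of E and T (right); lines join the values of a gene. Hopx falls below 0 in E5.5, and 5 of the 8 genes on the right lie above 0 there.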

How the data were processed

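Microwell single-cell RNA-seq (BD Rhapsody) of 4 libraries was read as the deposited tables of UMI counts per gene and cell. Per the submitters' processing notes the authors used UMI-tools 1.0.1, STAR 2.7.1a, Subread, featureCounts 1.6.4 and mm10. Which annotation and which barcode cutoff were applied, and whether counting used strand, is not given in the sources used here. Without a stated strand setting, overlapping and antisense genes cannot be told apart.

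Cells under 1000 UMIs (44 of 2566 in EDG9.5) were left out. Raw counts were summed per class and divided by the class total to give CPM. Differences are log2 ratios of CPM plus 10. Depth per class was 3772684 UMIs in N, 2537137 in E and 4548843 in T. The members and gene lists were chosen with earlier results of these data known. Genes were named by rank among those of at least 100 CPM in the higher classes: the 15 furthest above and the 8 furthest below both other classes, and 4 each for N with T over E and N with E over T, without ribosomal, mitochondrial, haemoglobin and predicted genes. Besides these came members of the 5 core lists (transcription factors, basement membrane, PDGF and FGF, uptake, parietal endoderm) and the most abundant or most different members of other lists; other list members named in the text were chosen after their values were seen. Shares of cells with a UMI were thinned to 1000 UMIs per cell. Doublets were kept: Scrublet marked 8 of 2522 cells, too few to be a working call, and was used as an alternative only. N cells were clustered with Leiden (2000 variable genes, 30 components, 15 neighbours, resolution 0.5). Alternatives were a higher UMI minimum, cell quality limits, a stricter share, other totals, TMM (edgeR 4.0.16), means over cells, thinning, other added CPM and other count minimums. The sums, intervals and ratios were tested on simulated data. Gene names, positions and promoter windows came from RefSeq (GRCm38.p6); 23869 of 25437 gene names matched. Software was python 3.11.15, numpy 2.4.6, scipy 1.17.1, pandas 2.3.3, scanpy 1.11.5, leidenalg 0.10.2 and matplotlib 3.10.9.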

Additional observations from a re-analysis of the deposited data

Results flagged for a closer look

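Between EDG9.5 and E5.5, 3 named genes were at least 2-fold apart in opposite directions on the measure that picked them. By sign alone, without that limit, 14 of 15 genes highest in N, 3 of 8 lowest in N, 4 of 4 shared with T and 3 of 4 shared with E kept their side in E5.5. Shares of all genes with these signs in E5.5 are not given, so the counts by sign have no background. The differences between these libraries were not tested. Hopx, as the log2 ratio of N over the higher of E and T, was 4.67 in EDG9.5 and -1.79 in E5.5. Id2, as N over the lower of E and T, was -3.32 and 1.09. In E5.5 Id2 was at 329 CPM in N, 149 in E and 764 in T, so N lay between the other classes. Aqp3, on the same measure, was -2.55 and 1.89. In E5.5 Aqp3 was low in all classes, at 29.6 CPM in N, 0.699 in E and 17.5 in T, less than 2-fold above T.

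The 50 EDG9.5 cells without a class, which no comparison used, held 70 N set UMIs among 100062, or 699.6 CPM (545 to 884), above the 30.0 CPM that a count of 0 allows. One cell held 50 of the 70, and without it, a step added after seeing the data, the level was 241 CPM (147 to 373), above a limit of 36.2 CPM for those cells. An N set UMI was present in 11 of the 50 cells, and 31 had at least 50% mitochondrially encoded UMIs.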

How the results depend on the processing

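All 31 genes named by rule kept their 2-fold direction under every alternative run for them. They were picked as extremes in the same data, so this is a weak check. List medians, 62 in all, changed sign under some settings, none of them past 2-fold in the main values: 8 with TMM, 6 at 200 UMIs, 4 with thinned cells, 3 as means over cells, 3 at a minimum of 10 UMIs and 3 without ribosomal and mitochondrial totals, and at most 2 under any other. The PDGF and FGF median over T went from 0.10 to -0.30 with TMM and to -0.59 at 200 UMIs. Counts of genes moved most with the scaling and the added CPM. With TMM (factors 1.09 for N, 1.15 for E and 0.797 for T), the count of genes higher in N than in T was 972. With 1 CPM added, genes higher in N than in both E and T numbered 663, genes lower in N than in both E and T 278, genes higher in N than in E 1354, genes lower in N than in E 1271 and genes higher in N than in T 2631. With 50 CPM added these were 154, 32, 272, 311 and 410, and genes lower in N than in T numbered 323. Of 12 list medians past 2-fold, 2 stayed past it with 50 CPM, 6 with TMM, 6 with thinned cells, 9 as means over cells, 10 at a minimum of 10 UMIs and 11 at 200. No paired analysis was possible because each label has 1 library and no comparison has replicates. Depth limits genes of a few UMIs per class, whose ratios have wide intervals, and all intervals cover counting error only.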

Other observations

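Some genes outside the lists were high in N, chosen after their values were seen. Runx1, a transcription factor best known from blood formation, was at 521 CPM in N, 1.58 in E and 53.9 in T. Flrt3, a membrane protein that binds FGF receptors, was at 360, 18.9 and 1.32 CPM. The WNT amplifier Rspo3 was at 124, 0.394 and 0.440 CPM. Growth hormone receptor (Ghr) was at 95.4, 1.97 and 1.54 CPM, the cytokine inhibitor Socs1 at 149, 3.94 and 4.40 CPM, and Igf1 at 78.7 CPM with 0 UMIs in E and T. Klb, the FGF co-receptor beta-Klotho, was at 72.6, 3.15 and 0.660 CPM. Xist, the RNA of the inactive X chromosome, was at 752 CPM in N, 17.3 in E and 264 in T. H19, by contrast, was highest in T, at 76.1 CPM in N, 11.8 in E and 5382 in T. Within N, H19 was at 339 CPM in cluster 2 and 9.96 CPM in the other N cells.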
